A study of Homo sapiens with 9 samples.

Results

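Splicing factors of the SR protein and hnRNP families, and the kinases that phosphorylate SR proteins, were followed in insulin-resistant hepatoma cells given insulin or biomineralized insulin. The genes were chosen by name: every symbol beginning SRSF or HNRNP, together with CLK1, CLK2, CLK3, CLK4, SRPK1, SRPK2, TRA2A, TRA2B, SRRM1, SRRM2 and RBM39, with current symbols or aliases and without pseudogenes. This gave 56 genes, 49 by symbol or name and 7 through an alias beginning SRSF or HNRNP. Of these, 51 had a probe set assigned to them alone, and 46 were bright enough to be tested, among 12239 genes tested in all. The 46 were 10 SR proteins, 5 SR-related proteins (TRA2A, TRA2B, SRRM1, SRRM2 and RBM39), 6 SR protein kinases, 20 hnRNPs and 5 genes reached by alias (RBMX, PTBP1, SYNCRIP, PCBP2 and SCAF11).

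SR proteins bind exonic sequences through RNA recognition motifs and use a tail rich in arginine and serine to recruit the spliceosome, the machine that removes introns. SRPK kinases phosphorylate that tail in the cytoplasm so that SR proteins enter the nucleus, and CLK kinases phosphorylate it further in the nucleus and release SR proteins from storage in nuclear speckles. hnRNPs coat nascent transcripts, and many of them oppose exon inclusion. Messages of many SR proteins, hnRNPs and CLKs carry exons or retained introns that divert them to decay or hold them in the nucleus, so a gene's probe sets can read RNA forms of different fate.

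The 3 groups compared had 3 Affymetrix arrays each. All cells are described in the protocols as R-HepG2, an insulin-resistant form of the human liver cancer line HepG2, which were kept overnight without serum and then received for 4 h either plain DMEM (medium), insulin, or biomineralized insulin, both with 40 ug/ml insulin. Medium samples carry the cell line tag R-HepG2 and both treated groups the tag HepG2, no group received the mineral without insulin, and nothing says that replicates were separate cultures. The p-values then measure only how far these samples spread, which may be technical. How the resistant line was made is not described in the labels.

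The array medians lay between 5.46 and 5.50 log2. Against the liver label, 4 of 13 measured liver and hepatoma markers were above the brightness filter of 4.74 log2, APOA1 at a mean of 5.87 being the brightest. ALB (albumin), AFP (alpha-fetoprotein) and APOB were at 3.40, 2.93 and 2.78, below the filter. Of 7 lung epithelial markers 4 were above the filter, of 6 fibroblast markers 4, and of 4 blood cell markers 2. The summed linear signal of the liver list was 257.8 to 284 on medium arrays, 262.5 to 282.4 on insulin arrays and 273.1 to 286.7 on biomineralized insulin arrays, whereas that of the lung list was 272.7 to 291.3, 286.2 to 296 and 325.7 to 340.1, and that of the fibroblast list 487.7 to 517.5, 508.1 to 543.5 and 563.1 to 582. In the lung list only NKX2-1 was called with biomineralized insulin against medium (0.59 log2, limma adjusted p = 8.6e-06 without a filter). In the fibroblast list only DCN was (0.32 log2, limma adjusted p = 0.00015), and COL1A1 was at -0.20 and not called. The blood list, with PTPRC at 2.76 and below the filter, gave 142.9 to 174.2, 144.2 to 152.6 and 157.2 to 172.5. Their part in the results was not tested. Fewer cells of a type and less RNA per cell cannot be told apart in such bulk samples.

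The promoters of 4 genes are shown because these genes recur in the results: SRRM2 and SRSF3 rose with biomineralized insulin, CLK1 fell, and HNRNPA2B1 alone carries a heat shock element among the genes studied. Each is the 250 bases before a transcription start, from RefSeq on build GRCh38.p14, written 5′ to 3′ on the gene's strand. Capitals mark motif matches: TGACG or its reverse complement (the core of the cAMP response element), GCGC, any base and TGCGC in a row (a site of the transcription factor NRF1), or the triplets GAA, TTC and GAA with 2 free bases between each pair (a heat shock element).
SRRM2, chr16:2752388-2752637, plus strand: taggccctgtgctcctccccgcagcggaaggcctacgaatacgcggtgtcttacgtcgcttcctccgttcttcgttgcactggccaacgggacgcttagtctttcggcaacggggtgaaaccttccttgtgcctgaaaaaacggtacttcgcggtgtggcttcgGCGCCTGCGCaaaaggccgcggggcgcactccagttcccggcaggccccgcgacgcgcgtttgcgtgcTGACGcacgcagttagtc
SRSF3, chr6:36594112-36594361, plus strand: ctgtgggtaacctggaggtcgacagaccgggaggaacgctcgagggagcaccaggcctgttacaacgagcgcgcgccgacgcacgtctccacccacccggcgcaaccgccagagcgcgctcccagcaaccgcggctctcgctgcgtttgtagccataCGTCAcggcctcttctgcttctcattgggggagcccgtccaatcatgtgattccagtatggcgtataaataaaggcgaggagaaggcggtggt
CLK1, chr2:200864659-200864908, minus strand: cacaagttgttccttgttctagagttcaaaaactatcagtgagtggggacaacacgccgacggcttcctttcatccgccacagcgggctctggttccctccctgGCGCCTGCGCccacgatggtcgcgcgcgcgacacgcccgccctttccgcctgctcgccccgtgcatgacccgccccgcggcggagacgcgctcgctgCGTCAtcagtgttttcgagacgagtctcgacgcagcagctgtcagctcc
HNRNPA2B1, chr7:26200747-26200996, minus strand: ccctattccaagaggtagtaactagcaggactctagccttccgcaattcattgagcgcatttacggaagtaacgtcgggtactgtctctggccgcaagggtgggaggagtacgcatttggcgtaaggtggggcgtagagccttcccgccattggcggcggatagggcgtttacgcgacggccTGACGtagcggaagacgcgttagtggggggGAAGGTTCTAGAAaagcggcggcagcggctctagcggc
Promoter windows were found for 49 of the genes, 71 windows in all. Searched on both strands, TGACG was present in 42.3% of these windows and in 21.2% of the 35116 windows of all genes, and the NRF1 site in 15.5% against 5.08%. The heat shock element was present in 1.41% of the windows against 0.441%, and TGATGNAAT, the amino acid response element, in 0% against 0.888%. The windows of all genes were not matched to these in base composition, whose part in these shares was not tested. The motifs do not overlap one another in the sequences shown. Matches were present both in genes that rose and in genes that fell: TGACG occurs in all 4 windows shown, CLK1 included.

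With insulin alone, the changes of splicing factor transcripts were small in size. Among 46 genes, 6 (13%) passed an adjusted p under 0.05 (limma with Benjamini-Hochberg adjustment over all 12239 genes), 4 higher and 2 lower. The background was 2.45% of all tested genes called. The largest of these changes was 0.22 log2, and the median over the 46 was 0.01 log2, beside 0.0073 over all genes tested. At an unadjusted p under 0.05 there were 16 of the 46, a larger share than the 15.8% of all genes tested. In 14 of the 46 the 3 values of one group all lay above those of the other, a larger share than the background of 18.3%.

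SRRM2, a large scaffold protein of nuclear speckles, was at 8.86, 8.89 and 8.98 log2 in medium and at 9.19, 9.05 and 9.16 with insulin, a rise of 0.22 ± 0.06 log2 (SE, adjusted p = 0.048). SRSF5 was at 10.63, 10.67 and 10.69 in medium and at 10.87, 10.80 and 10.87 with insulin (0.18 ± 0.04, adjusted p = 0.029). SRSF7 read 11.37, 11.35 and 11.38 in medium and 11.53, 11.47 and 11.57 with insulin (0.15 ± 0.03, adjusted p = 0.016). In the probe sets that represent these 3 genes every insulin array lay above every medium array. Of all their probe sets above the filter, 1 of 5 for SRRM2, 1 of 10 for SRSF5 and 1 of 4 for SRSF7 was called, each higher. Differences ranged from 0.06 to 0.27 for SRRM2, from -0.16 to 0.20 for SRSF5 and from -0.04 to 0.15 for SRSF7. CLK2, a nuclear kinase of SR proteins, read 9.18, 9.18 and 9.21 in medium and 9.37, 9.38 and 9.30 with insulin (0.16 ± 0.04, adjusted p = 0.040). Its 3 probe sets were at 0.09 to 0.18, and none was called when adjusted over all probe sets.

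The 2 genes that fell with insulin were hnRNPs. HNRNPLL, known as a splicing regulator of CD45 in lymphocytes, was at 10.81, 10.75 and 10.74 in medium and at 10.60 on each insulin array (-0.16 ± 0.03, adjusted p = 0.025). Its deposited value was exactly the same on the 3 insulin arrays, which held for 0.931% of all probe sets in that group. HNRNPA0, an hnRNP that binds AU-rich elements, was at 10.35, 10.30 and 10.33 in medium and 10.20, 10.17 and 10.18 with insulin (-0.14 ± 0.04, adjusted p = 0.046), while its other probe set was at 0.07 ± 0.06. HNRNPA2B1 had the largest difference of the 46 at 0.24 ± 0.06, but its groups overlapped and it was not called (adjusted p = 0.060).

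These 6 calls rested on single arrays and on the scaling. The count of 6 became 0 without medium replicate 2, without insulin replicate 1 or without insulin replicate 3. It became 3 without medium replicate 1, 8 without insulin replicate 2, and 0 under centring of the arrays on their poly-A spike-ins. The calls over all genes moved likewise. Their count of 300 became 62, 145, 57, 187 and 425 without these arrays in the same order, and 5 under spike-in centring. Leaving out 1 array took the adjusted p of SRSF7 to at most 0.11, of SRSF5 to 0.14, of CLK2 to 0.14, of SRRM2 to 0.21, of HNRNPLL to 0.11 and of HNRNPA0 to 0.19. Actin, whose 3′ minus 5′ signal is a sign of RNA quality, gave 3.02 ± 0.06 log2 in medium and 3.19 ± 0.08 with insulin for that signal (SD, n = 3), with a two-sided exact permutation p of 0.1 (0.225 after adjustment over 9 tests), below which groups of 3 cannot go. Its part in these differences was not tested.

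Biomineralized insulin was accompanied by more and larger differences in the same genes. Against medium, 31 of the 46 genes passed, 23 higher and 8 lower, against a background of 50.9% of all genes called (25.7% higher and 25.2% lower). A change of 1.5-fold or more was seen in 4 of the 46 (SRRM2, SRSF2, SRSF7 and RBMX, all higher), against 7.11% of all genes. The median over the 46 was 0.12 log2, beside 0.022 over all genes tested. The groups did not overlap in 33 of the 46, against 56.6% of all genes. Against insulin, 31 of 46 passed as well, 24 higher and 7 lower, against a background of 44.4% (21.1% higher and 23.3% lower). Of the 46, 2 were called and at least 1.5-fold (SRSF2 and SRRM2), against 5.2% of all genes. The median was 0.073 beside 0.018. In that comparison the groups did not overlap in 32 of the 46, against 52.7% of all genes. Both comparisons use the same biomineralized insulin arrays.

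**Figure D1:**
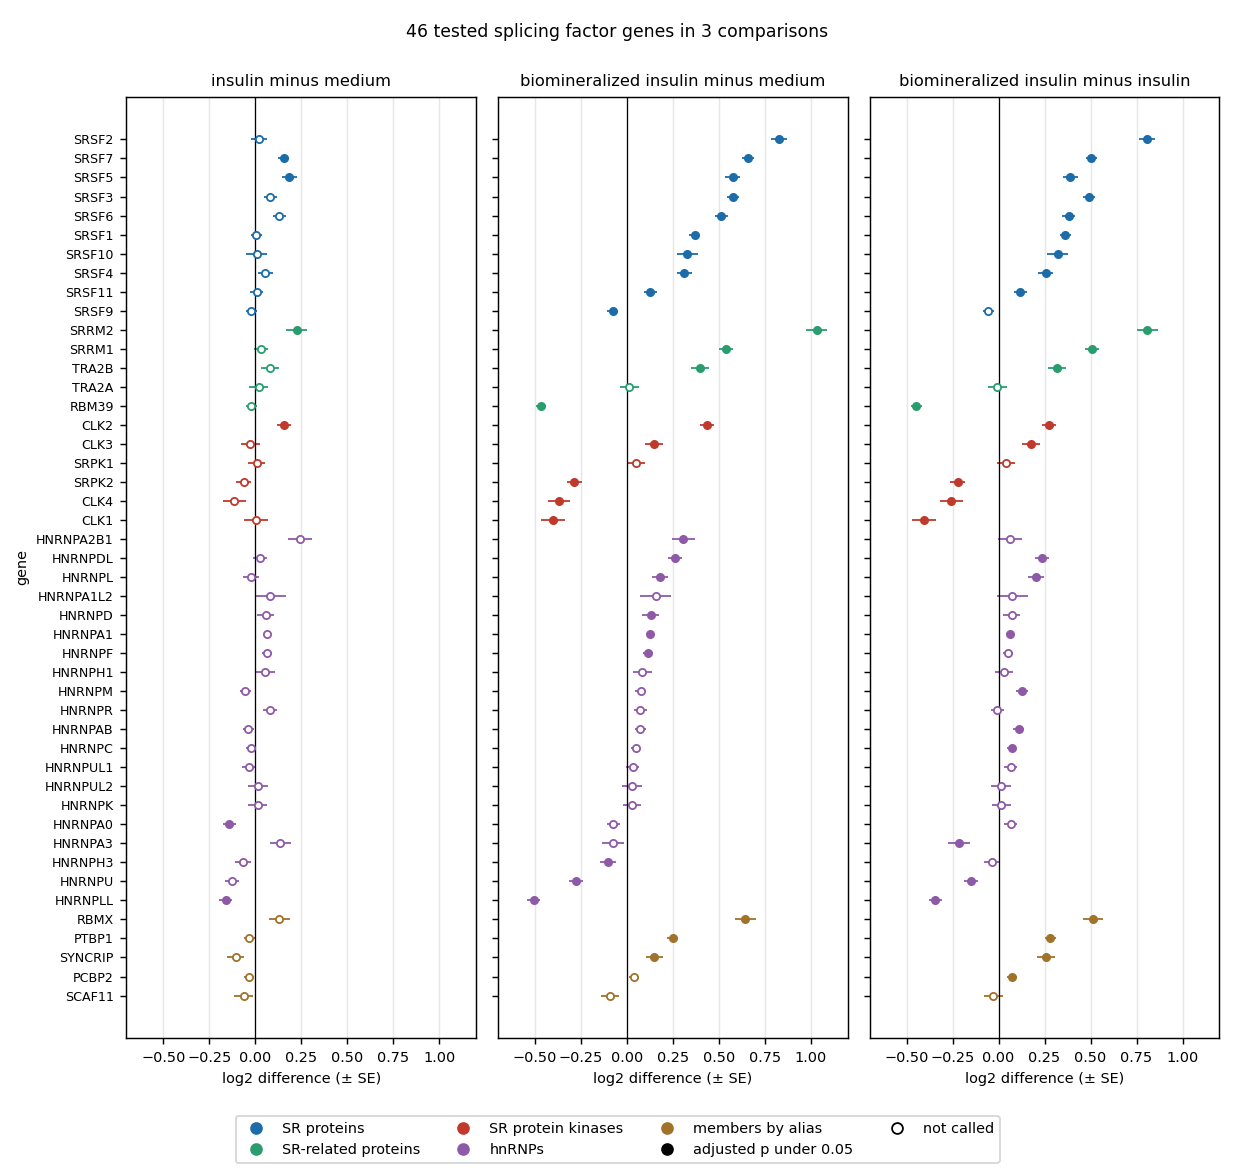
Differences of the 46 tested splicing factor genes in 3 comparisons (horizontal axis, log2 difference; bars, SE from the fit of all 9 arrays; filled points, adjusted p under 0.05), grouped by family. In both panels with biomineralized insulin 9 of 10 SR proteins are filled and above 0, while RBM39, CLK1, CLK4, SRPK2 and HNRNPLL lie below 0. After centring on spike-ins only SRRM2 and SRSF2 are called higher.

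All these directions are relative to the scaling of the deposited values. Spiked bacterial poly-A transcripts, which are added to each RNA sample as controls, were at 7.80 ± 0.17 log2 on biomineralized insulin arrays, 7.36 ± 0.08 on medium arrays and 7.39 ± 0.06 on insulin arrays (SD, n = 3 each; exact p = 0.1 in both comparisons, 0.225 adjusted over 9 tests). With arrays centred on these 12 control probe sets, the all-gene median shifted by -0.44 log2 against medium and by -0.41 against insulin. The split of the 46 genes then became 2 higher and 29 lower against medium, and 2 higher and 28 lower against insulin. Over all 12239 genes it became 197 higher and 9347 lower against medium, and 124 higher and 9482 lower against insulin. SRRM2 and SRSF2 were the 2 called higher in both comparisons, at 0.59 and 0.38 log2 against medium. Called or not, 8 of the 46 were above 0 against medium and 6 against insulin. A rise below is therefore relative to the scaling of the deposited values, in which the all-gene median difference was 0.022 against medium and 0.018 against insulin. Centring on array medians gave 22 higher and 9 lower against medium, and 20 and 7 against insulin. Over all genes it gave 2781 higher and 3308 lower, and 2290 and 3030. The order of the genes by their differences is the same with deposited values and with spike-in centring.

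**Figure D2:**
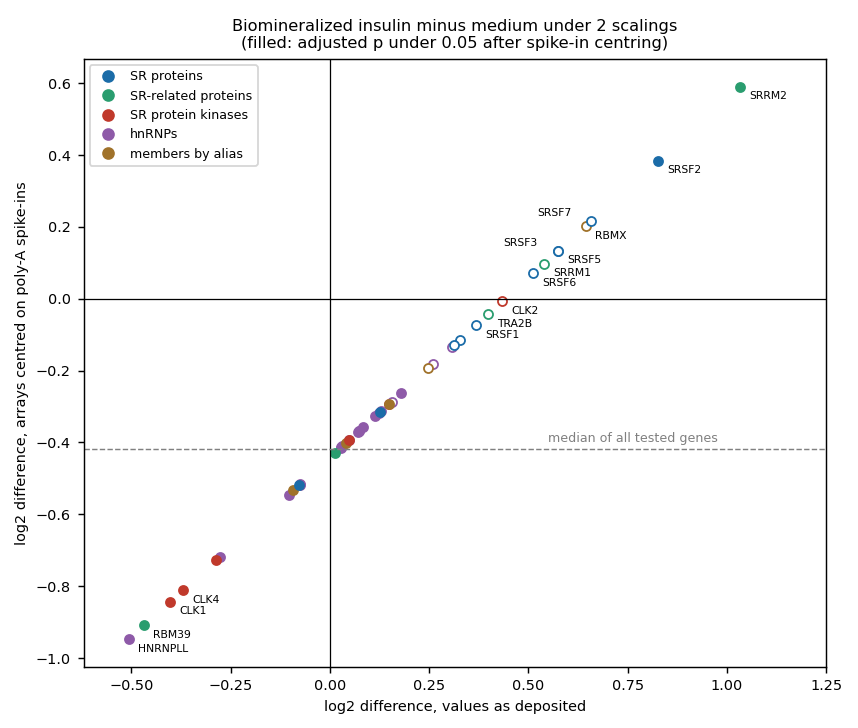
Difference between biomineralized insulin and medium for each of the 46 genes with values as deposited (horizontal axis, log2) and with arrays centred on the poly-A spike-ins (vertical axis, log2); filled points have an adjusted p under 0.05 after centring, and the dashed line is the median of all tested genes. SRRM2 at 0.59 and SRSF2 at 0.38 are filled above 0, and CLK2 moves from 0.43 to -0.0068.

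With values as deposited, 9 of the 10 SR proteins tested rose against medium and 1 fell, with a median of 0.44 log2. Over all genes 25.7% were higher and 25.2% lower. With spike-in centring 1 of the 10 was higher, 2 were lower and the median was -0.0015. Over all 12239 genes 197 were then higher and 9347 lower, with a median of -0.42. SRSF2, a mainly nuclear SR protein that activates exons, was at 10.31, 10.29 and 10.17 log2 in medium, 10.31, 10.21 and 10.30 with insulin and 11.03, 11.12 and 11.10 with biomineralized insulin. Medium and insulin arrays overlapped, and each biomineralized insulin array lay above all of them. The rise was 0.83 ± 0.04 against medium (1.77-fold, limma adjusted p = 2.1e-10) and 0.81 ± 0.04 against insulin (adjusted p = 3.8e-10).

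SRSF7, a shuttling SR protein with a zinc knuckle, reached a mean of 12.02 ± 0.02 (SD, n = 3) with biomineralized insulin, each array above its medium and insulin values, and rose by 0.66 ± 0.03 against medium and by 0.50 ± 0.03 against insulin. SRSF3, the smallest of the shuttling SR proteins and an adaptor for messenger RNA export, was at 12.24, 12.14 and 12.19 in medium, 12.29, 12.23 and 12.31 with insulin and 12.71, 12.81 and 12.78 with biomineralized insulin (0.57 ± 0.03 against medium). SRSF5 reached 11.24, 11.32 and 11.14 with biomineralized insulin (0.58 ± 0.04 against medium). In these 3 genes the biomineralized insulin arrays did not overlap with either other group. With spike-in centring their differences against medium were 0.22, 0.13 and 0.13 log2 and none was called, with adjusted p of 0.060 for SRSF7.

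SRSF6 was at 9.69, 9.72 and 9.69 in medium, 9.86, 9.79 and 9.85 with insulin and 10.20, 10.23 and 10.22 with biomineralized insulin, a rise of 0.51 ± 0.04 against medium, with the 3 groups apart. SRSF1, the founding member of the family and a driver of exon inclusion, read 11.86, 11.80 and 11.76 in medium, 11.82, 11.79 and 11.82 with insulin and 12.16, 12.17 and 12.20 with biomineralized insulin (0.37 ± 0.03 against medium and 0.36 ± 0.03 against insulin). SRSF10, SRSF4 and SRSF11 rose by 0.33 ± 0.06, 0.31 ± 0.04 and 0.13 ± 0.04 against medium, and spike-in centring turned SRSF1, SRSF10, SRSF4 and SRSF11 to -0.07, -0.11, -0.13 and -0.31. The call of SRSF11 against insulin (0.12 ± 0.04, adjusted p = 0.012) was lost without insulin replicate 2 or without biomineralized insulin replicate 3 (adjusted p up to 0.057).

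SRSF9 stood apart from the family. It was lower against medium by a small amount (-0.08 ± 0.03, adjusted p = 0.040), a call that did not survive the removal of any one array except medium replicate 3 (adjusted p of 0.056 to 0.16), and it was not called against insulin (-0.06, adjusted p = 0.14). The remaining 2 SR proteins, SRSF8 and SRSF12, lay below the brightness filter.

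**Figure D3:**
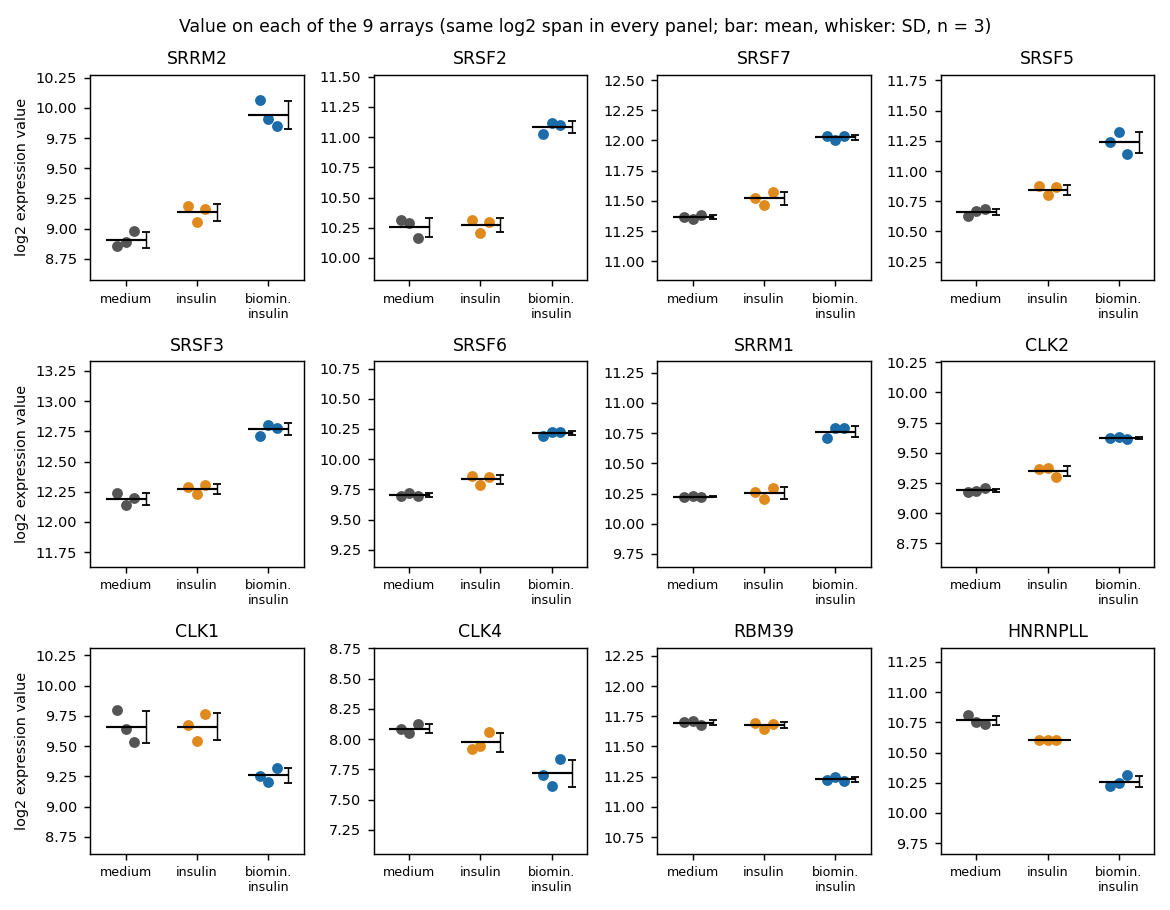
Deposited log2 values of 12 splicing factor genes on each of the 9 arrays (points), with the mean (bar) and SD (whisker, n = 3) of each group; every panel spans the same number of log2 units on the vertical axis. The 3 biomineralized insulin arrays lie above the other 6 for the SR proteins, SRRM1, SRRM2 and CLK2 and below them for CLK1, CLK4, RBM39 and HNRNPLL; with spike-in centring CLK2 against medium is at -0.0068, and SRSF5 and SRSF6 turn sign against insulin.

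Of the 5 SR-related proteins, 3 rose against medium, 1 fell and 1 was not called, beside 25.7% higher and 25.2% lower over all genes. SRRM2, a large serine and arginine rich protein that helps build nuclear speckles, was at 10.07, 9.91 and 9.85 log2 with biomineralized insulin, above all medium and insulin arrays given earlier. Its rise of 1.03 ± 0.06 against medium (2.05-fold, adjusted p = 3e-10) was the largest of the 46 genes, and against insulin it rose by 0.81 ± 0.06 (1.75-fold). SRRM1, a splicing coactivator that bridges SR proteins and the core machinery, read 10.22, 10.23 and 10.22 in medium, 10.26, 10.20 and 10.30 with insulin and 10.71, 10.79 and 10.79 with biomineralized insulin (0.54 ± 0.04 against medium), with the last group apart from the others. TRA2B, an activator of exons with GAA-rich sequences, rose by 0.40 ± 0.05 against medium and by 0.32 ± 0.05 against insulin, differences that turned to -0.04 and -0.09 with spike-in centring. Its close relative TRA2A was at 0.01 ± 0.05 against medium (adjusted p = 0.86).

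RBM39, an arginine and serine rich splicing factor related to U2AF, moved the other way. It was at 11.70, 11.71 and 11.68 in medium, 11.69, 11.65 and 11.69 with insulin and 11.22, 11.25 and 11.21 with biomineralized insulin. Insulin and medium arrays overlapped and the biomineralized insulin arrays all lay lower, by 0.47 ± 0.03 log2 against medium (1.38-fold, adjusted p = 9.2e-10) and 0.45 ± 0.03 against insulin (adjusted p = 2.4e-09). All 7 of its probe sets fell against medium, from -0.54 to -0.33.

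The kinases of SR proteins split. Against medium 2 of the 6 rose and 3 fell, beside 25.7% higher and 25.2% lower over all genes. Against insulin 2 rose and 3 fell, beside 21.1% and 23.3%. With spike-in centring none was higher and 5 were lower against medium, where 9347 of all 12239 genes were lower. CLK1, which in many cells is held partly as an intron-retaining nuclear transcript, was at 9.80, 9.64 and 9.54 log2 in medium, 9.68, 9.54 and 9.77 with insulin and 9.25, 9.20 and 9.32 with biomineralized insulin. The lowest of the other 6 arrays lay above all 3. CLK1 fell by 0.40 ± 0.06 against both medium (adjusted p = 5.8e-05) and insulin (adjusted p = 6.8e-05).

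CLK4, the paralog closest to CLK1, was at 8.08, 8.05 and 8.12 in medium, 7.91, 7.94 and 8.06 with insulin and 7.70, 7.61 and 7.84 with biomineralized insulin, with no overlap between the last group and the others (-0.37 ± 0.06 against medium and -0.26 ± 0.06 against insulin). SRPK2 read 9.35, 9.42 and 9.35 in medium, 9.28, 9.30 and 9.35 with insulin and 9.07, 9.06 and 9.13 with biomineralized insulin (-0.29 ± 0.04 against medium, -0.22 ± 0.04 against insulin). SRPK1, the other widely expressed cytoplasmic kinase, was at 10.50, 10.32 and 10.31 in medium, 10.40, 10.34 and 10.41 with insulin and 10.46, 10.45 and 10.37 with biomineralized insulin. Its groups overlapped and it was not called in any comparison (0.05 ± 0.05 against medium, adjusted p = 0.42).

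CLK2 was at 9.62, 9.63 and 9.61 with biomineralized insulin, above both other groups, and rose by 0.43 ± 0.04 against medium (adjusted p = 8.2e-08) and 0.28 ± 0.04 against insulin, values of -0.0068 and -0.14 with spike-in centring. CLK3 was at 8.30, 8.23 and 8.24 in medium, 8.23, 8.31 and 8.15 with insulin and 8.39, 8.44 and 8.40 with biomineralized insulin. The last 3 values lay above the rest, by 0.15 ± 0.05 against medium (adjusted p = 0.021) and 0.17 ± 0.05 against insulin (adjusted p = 0.0088). The call against medium was lost without medium replicate 2 or biomineralized insulin replicate 2 (adjusted p = 0.069 in both), that against insulin without insulin replicate 3 (adjusted p = 0.056), and spike-in centring gave -0.29 and -0.24.

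Of the 20 hnRNPs tested, 9 were called in each comparison with biomineralized insulin (45%), near the 50.9% and 44.4% of all genes. In the probe sets that represent them, 6 rose, 3 fell and 11 were not called against medium, with a median of 0.07 log2. Against insulin 6 rose and 3 fell. With spike-in centring none was higher and 17 and 18 of the 20 were lower, beside 9347 and 9482 of all 12239 genes. HNRNPLL fell stepwise, with 10.22, 10.25 and 10.31 on the biomineralized insulin arrays below all insulin arrays, which in turn lay below all medium arrays. Its difference was -0.51 ± 0.03 against medium (adjusted p = 4.8e-09) and -0.34 ± 0.03 against insulin (adjusted p = 5.9e-07). HNRNPU, a nuclear matrix protein also known as SAF-A, fell by 0.28 ± 0.04 against medium and by 0.15 ± 0.04 against insulin. HNRNPA3 fell against insulin in the probe set that represents it (-0.21 ± 0.06, adjusted p = 0.0074), and the groups overlapped.

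HNRNPA2B1, a reader of RNA sorting signals, rose against medium by 0.31 ± 0.06 (adjusted p = 0.00081) but was at 0.06 ± 0.06 against insulin (adjusted p = 0.46). Its insulin arrays read 12.75, 12.48 and 12.82, and the biomineralized insulin arrays 12.74, 12.76 and 12.74. Insulin replicate 2 lay below that range, replicate 1 within it and replicate 3 above it. HNRNPDL and HNRNPL, the latter a binder of CA repeats, rose by 0.26 ± 0.04 and 0.18 ± 0.05 against medium and by 0.24 and 0.20 against insulin. HNRNPA1, a classic antagonist of SR proteins, read 13.37, 13.37 and 13.38 in medium and 13.50, 13.49 and 13.50 with biomineralized insulin, a rise of 0.12 ± 0.02. HNRNPD and HNRNPF rose by 0.13 and 0.11 against medium. HNRNPA1 has many near-identical processed copies in the genome, so its probe sets can share signal with them. Spike-in centring turned each of these 6 rises against medium negative, to between -0.33 and -0.13.

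Among hnRNPs, calls near the threshold depended on single arrays. HNRNPH3 against medium (-0.10 ± 0.04, adjusted p = 0.0497) was lost without medium replicate 1 or 2 or biomineralized insulin replicate 1 or 3 (adjusted p up to 0.22), and HNRNPD against medium without medium replicate 3 or biomineralized insulin replicate 2 or 3 (adjusted p up to 0.18). Against insulin, HNRNPA1 was lost without insulin replicate 1 or 2 or biomineralized insulin replicate 1 or 3 (adjusted p up to 0.097), HNRNPC without insulin replicate 2 or biomineralized insulin replicate 3 (up to 0.085) and HNRNPA3 without insulin replicate 1 or biomineralized insulin replicate 2 (up to 0.056).

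Of the genes reached by alias, RBMX (also called HNRNPG), an X-linked partner of TRA2B in exon choice, was at 10.29, 10.11 and 9.98 log2 in medium, 10.28, 10.21 and 10.28 with insulin and 10.75, 10.79 and 10.77 with biomineralized insulin. Medium and insulin overlapped, and the biomineralized insulin group lay above both, by 0.64 ± 0.06 against medium (1.56-fold, adjusted p = 7.9e-08) and 0.51 ± 0.06 against insulin. PTBP1 (hnRNP I), a repressor of neuronal exons, rose by 0.25 ± 0.03 and 0.28 ± 0.03, and SYNCRIP (hnRNP Q) by 0.15 ± 0.05 and 0.26 ± 0.05. With spike-in centring RBMX was at 0.20 against medium and not called, and PTBP1 and SYNCRIP turned to -0.19 and -0.29. SYNCRIP against medium was lost without medium replicate 2 or 3 or biomineralized insulin replicate 2 or 3 (adjusted p up to 0.081). PCBP2 was called against insulin alone (0.07, adjusted p = 0.039), and lost without insulin replicate 2 or 3 or biomineralized insulin replicate 2 or 3 (up to 0.18). SCAF11 was not called in any comparison.

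The probe sets of one gene did not always agree. How often they disagree over all genes was not examined, so the counts of genes here have no background. The 46 genes had 204 probe sets above the filter, and 42 genes had several. Against medium, 106 of these probe sets rose, 35 fell and 63 were not called with biomineralized insulin, against a background of 45.9% of 29573 probe sets called in either direction. Against insulin, 106 rose, 26 fell and 72 were not called, against 38.6%. All probe sets had the same sign in 25 of the 42 genes against medium and in 24 against insulin. In 5 genes probe sets were called in both directions against medium (SRSF5, HNRNPDL, HNRNPU, HNRNPD and SYNCRIP), and in 5 against insulin (SRSF5, HNRNPDL, HNRNPU, HNRNPA3 and CLK4). With insulin alone 3 probe sets rose and 2 fell, against 1.2%, and no gene was called in both directions.

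**Figure D4:**
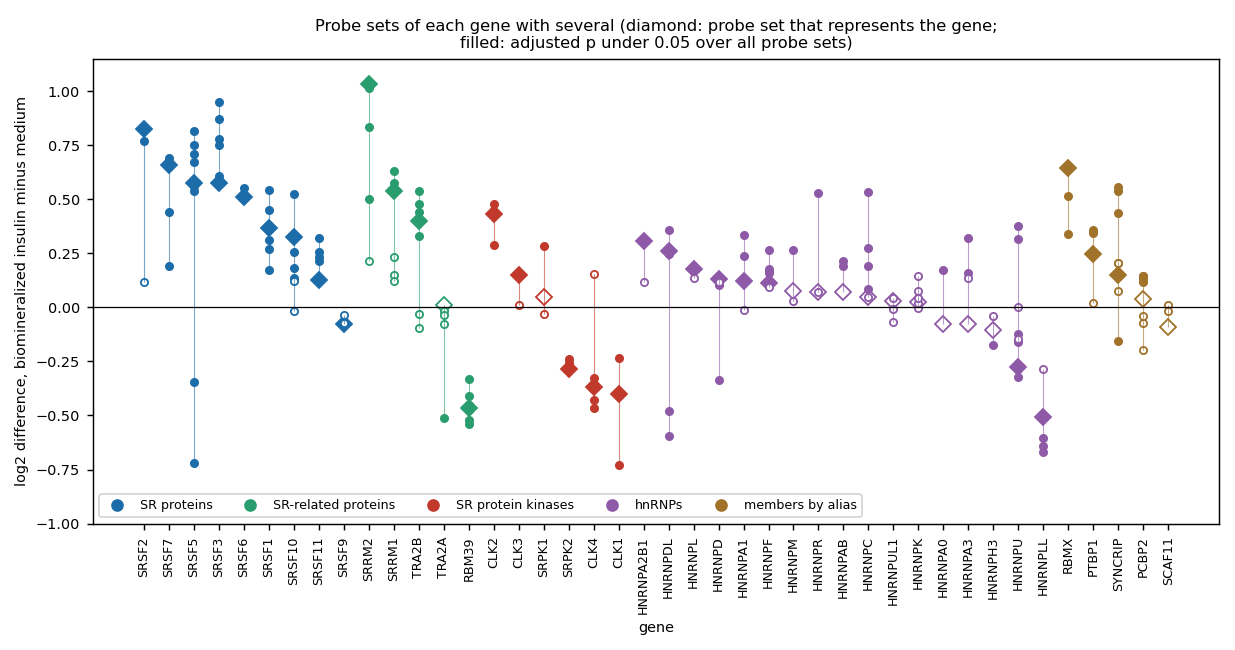
Difference between biomineralized insulin and medium (vertical axis, log2, values as deposited) for each probe set of the 42 splicing factor genes with several above the brightness filter; a diamond marks the probe set that represents the gene, and filled symbols have an adjusted p under 0.05 over all probe sets. RBM39, SRPK2 and CLK1 have all their probe sets below 0, while SRSF5, HNRNPDL and HNRNPU have filled probe sets on both sides; spike-in centring lowers every point by 0.44.

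SRSF5 showed the widest disagreement. Of its 10 probe sets above the filter, 8 rose against medium, by 0.54 to 0.82 log2, and 2 fell. One of these went from 5.96 in medium to 5.24 with biomineralized insulin (-0.72 ± 0.12, adjusted p = 0.00012 over all probe sets), the other from 5.19 to 4.84 (-0.34 ± 0.11, adjusted p = 0.024). SRSF3 rose in all 6 probe sets above the filter, by 0.57 to 0.95, while a further one below the filter went from 4.62 to 3.91 (-0.71). SRSF2 rose by 0.83 and 0.77 in 2 probe sets, and its remaining probe set was at 0.12 and not called. All probe sets above the filter rose for SRSF1 (6), SRSF7 (4), SRSF11 (5) and SRSF6 (2).

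In HNRNPDL, a paralog of HNRNPD, 3 probe sets rose against medium by 0.25 to 0.36, while one fell from 10.03 to 9.43 (-0.59 ± 0.07) and another from 7.22 to 6.74 (-0.48 ± 0.09). HNRNPU fell in 5 of 9 probe sets, by up to 0.32, and rose in 2, by 0.38 ± 0.05 and 0.32 ± 0.08. In HNRNPA3 the probe set that represents the gene fell against insulin, while 2 others rose, by 0.20 and 0.27. SYNCRIP ranged from -0.15 to 0.56 against medium, with 4 of 8 probe sets higher and 1 lower. HNRNPR was at 0.07 in 2 probe sets and at 0.53 ± 0.07 in the other. HNRNPC, not called against medium in the probe set that represents it, rose in 4 of 6, by up to 0.54. Likewise HNRNPAB rose in 2 of 3, HNRNPA3 in 2 of 4, HNRNPM in 1 of 3 and HNRNPA0 in 1 of 2. No probe set of HNRNPK, HNRNPUL1, HNRNPH1, HNRNPUL2 or HNRNPA1L2 was called against medium.

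The kinases and SR-related genes also held such cases. TRA2A was not called in 4 probe sets and fell in the other, from 8.96 in medium to 8.45 (-0.51 ± 0.07, adjusted p = 4e-05). CLK1 fell in all 3 probe sets, by 0.40, 0.73 and 0.23. CLK4 fell in 4 of 5 against medium and was at 0.16 in the other, which was called higher against insulin (0.18 ± 0.07, adjusted p = 0.047). SRPK1 rose in 1 of 3 probe sets, by 0.28 ± 0.08 against medium. SRRM2 rose in 4 of 5 probe sets, by 0.50 to 1.03, with the other at 0.22 and not called, and CLK2 rose in all 3.

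Other parts of the splicing machinery were read from lists chosen by function. Of 48 tested core spliceosome genes, 23 rose and 9 fell against medium with biomineralized insulin (median 0.09 log2), and 22 rose and 4 fell against insulin. The largest changes against medium were in PRPF38A, a factor needed for spliceosome activation (0.92 ± 0.04), PLRG1, part of the PRP19 complex (-0.78 ± 0.06), and SNRNP70, the U1 small nuclear ribonucleoprotein subunit that contacts SR proteins (0.77 ± 0.04). With insulin alone 2 of the 48 rose (PRPF38A by 0.21 and SNRNP70 by 0.20) and 2 fell, SNRPA by 0.33 and PHF5A by 0.13.

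Of 42 other splicing regulators, 19 rose and 11 fell against medium, and 18 rose and 9 fell against insulin. ESRP2, an epithelial splicing regulator, rose by 0.93 ± 0.05 against medium, PNN, a speckle protein, by 0.56 ± 0.06, and CIRBP, the cold-inducible RNA-binding protein, fell by 0.52 ± 0.05. CIRBP was also the single gene of this list called with insulin alone (-0.25). Among 13 other kinases and phosphatases that act on SR proteins, 2 rose and 5 fell against medium, with DYRK1A at -0.47 ± 0.04, PRP4K at 0.31 ± 0.05 and PPP1R10 at -0.19 ± 0.06, and 2 rose and 3 fell against insulin. Of 14 exon junction complex and nonsense-mediated decay genes, 5 rose and 6 fell against medium, led by RBM8A (0.85 ± 0.04), RNPS1 (0.60 ± 0.04) and SMG5 (-0.38 ± 0.06), and 5 rose and 5 fell against insulin. None of the last 2 lists was called with insulin alone by limma, with 1 of 13 and 3 of 14 at an unadjusted p under 0.05, against 15.8% of all genes. In each list the shares of called genes are to be set beside the backgrounds of 50.9%, 44.4% and 2.45% given above. These directions too are relative to the scaling of the deposited values.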

How the data were processed

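Arrays were read from the deposited table of log2 expression values per probe set, which the authors made with software not given in the sources used here. Per the labels' protocols, biotin-labelled cRNA was made with a kit that reads mainly 3′ ends. Scanner files were not used here. Precision is limited by the number of arrays. In the platform annotation, 44988 of 49395 probe sets had 1 gene, 1832 several, 2473 none and 102 were controls. Symbols of 44961 were updated through RefSeq's gene table (GRCh38.p14).

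The dimmest 40 percent of probe sets (mean below 4.74 log2) were not tested. A gene is represented by its single-gene probe set of highest mean. One limma model (limma 3.58.1, R 4.3.3, intensity trend, 9 arrays, 6 residual degrees of freedom, no replicate term) was fitted to 12239 genes, and a gene is called at an adjusted p under 0.05 (Benjamini-Hochberg); errors after ± are SE unless said otherwise. The same model was fitted to all bright probe sets. Control features were compared with two-sided exact permutation tests. Same-numbered arrays did not deviate together (correlations of -0.23 to 0.17), so replicate numbers were not taken as pairs. On simulated data with 12239 genes, genes changed by 0.2, 0.4 and 0.8 log2 were found at rates of 37.3, 79.1 and 100% in insulin against medium, 26.9, 76.1 and 98.5% in biomineralized insulin against medium, and 41.8, 73.1 and 98.5% in biomineralized insulin against insulin. Up to 8 false calls were made.

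The genes, background lists, motifs and tests were chosen with earlier results of these data known. Array values are given for up to 12 called genes with the largest change per comparison whose groups did not overlap and for the 6 kinases; background lists give counts and up to 3 called genes of largest change. PHF5A is named beyond that rule, after its value was seen, as are the probe sets singled out, the HNRNPA1, HNRNPA2B1 and SRSF8 arrays and the promoters shown. HNRNPH2 has probe sets shared with another gene only, and it and 4 further genes without a probe set of their own are not analysed here. Alternatives were a replicate block, fewer arrays in the fit, other normalizations and filters, the probe set of each gene, the variance model, array weights, membership and leaving out each array. Figures were drawn with matplotlib 3.10.9.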

Additional observations from a re-analysis of the deposited data

How the results depend on the processing

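The number of genes changed with insulin against medium was 6. It was 0 with no intensity trend, 0 with spike-in centring, 0 with the mean of probe sets, 0 with the probe set of largest variance, 2 with median centring, 3 with no brightness filter, 3 without cross-hybridizing probe sets, 3 with only the 6 arrays compared, 6 with a robust variance model, 6 with members by current symbol alone, 7 with the dimmest 60 percent left out, 8 with quantile normalization, 9 with array weights, and 0 to 8 when 1 array was left out. Over all genes the 300 calls with insulin became 37 with no intensity trend, 5 with spike-in centring and 207 with the mean of probe sets. They became 177 with the probe set of largest variance, 197 with median centring, 412 with quantile normalization and 605 with array weights. With only the 6 arrays compared they were 152, and with a robust variance model 321. With no brightness filter they were 213 of 18134 genes, and with the dimmest 60 percent left out 356 of 9069. Without cross-hybridizing probe sets they were 199 of 10663. Against medium the count of splicing factors with biomineralized insulin was 31 (22 to 38 under the alternatives, 27 to 33 without 1 array). Against insulin it was 31 (23 to 33, and 27 to 30). Both lowest counts came without cross-hybridizing probe sets, where some genes were not tested and 5122 and 4407 of all 10663 genes were called. Both highest came with the probe set of largest variance, with 6180 and 5198 of all 12239 called. Without 1 array the all-gene calls were 5504 to 6232 against medium and 4855 to 5174 against insulin. The number of SR proteins higher was 9 in both comparisons and 1 in both with spike-in centring, and at least 6 under every other alternative run. The 6 came without cross-hybridizing probe sets, where SRSF2, SRSF6 and SRSF10 had no probe set left and were not tested.

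With a replicate block the counts were 4, 30 and 31, beside 226, 6081 and 5302 of all 12239 genes. Since the numbers share no known batch, this block is given only here; 3 of the 6 insulin calls and the call of HNRNPH3 were lost under it.

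Spike-in centring turned 15 rises against medium: CLK2 to -0.0068, CLK3 to -0.29, HNRNPA1 to -0.32, HNRNPA2B1 to -0.13, HNRNPD to -0.31, HNRNPDL to -0.18, HNRNPF to -0.33, HNRNPL to -0.26, PTBP1 to -0.19, SRSF1 to -0.074, SRSF10 to -0.11, SRSF11 to -0.31, SRSF4 to -0.13, SYNCRIP to -0.29 and TRA2B to -0.044. Against insulin it turned 18: CLK2 to -0.14, CLK3 to -0.24, HNRNPA1 to -0.35, HNRNPAB to -0.30, HNRNPC to -0.34, HNRNPDL to -0.18, HNRNPL to -0.21, HNRNPM to -0.28, PCBP2 to -0.34, PTBP1 to -0.13, SRSF1 to -0.049, SRSF10 to -0.092, SRSF11 to -0.29, SRSF4 to -0.16, SRSF5 to -0.022, SRSF6 to -0.030, SYNCRIP to -0.16 and TRA2B to -0.095. The shift of all genes by this centring is its own construction.

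The choice of probe set turned others. With the mean of probe sets HNRNPDL was at -0.041 against medium and -0.014 against insulin, where HNRNPA3 was at 0.089 and HNRNPU at 0.018. With the probe set of largest variance HNRNPD, HNRNPDL and HNRNPU were at -0.34, -0.59 and 0.32 against medium, HNRNPA3, HNRNPDL, HNRNPU and PCBP2 at 0.27, -0.62, 0.28 and -0.17 against insulin, and HNRNPA0 at 0.069 with insulin against medium. Without cross-hybridizing probe sets SYNCRIP was at -0.15 against medium and -0.036 against insulin, where HNRNPA3 was at 0.20 and HNRNPU at 0.0057. These turns follow the probe sets that disagree. Dim probe sets limit SRSF8, SRSF12, HNRNPCL1, HNRNPCL2 and RBMXL2, whose signal over background was not examined.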

Other observations

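Of the genes studied, 5 had a probe set of their own but lay below the brightness filter: SRSF8, SRSF12, HNRNPCL1, HNRNPCL2 and RBMXL2. SRSF8, a retrogene close to SRSF2, was at 4.04, 3.96 and 3.84 log2 in medium, 3.86, 3.73 and 4.03 with insulin and 4.23, 4.09 and 4.23 with biomineralized insulin. Its 3 biomineralized insulin arrays lay above the other 6, by 0.31 against insulin (limma adjusted p = 0.029 over all probe sets without a filter) and by 0.24 against medium (adjusted p = 0.087). The near-identical sequence of SRSF2 can share signal with such a probe set, which was not tested. SRSF12, HNRNPCL1, HNRNPCL2 and RBMXL2 were at means between 2.61 and 4.50 log2, and none was called in any comparison without a filter.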
